A study of Caenorhabditis elegans with 12 samples.

Results

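Transcripts of 10 genes of the autophagy pathway were followed in Caenorhabditis elegans after knockdown of subunits of the lysosomal proton pump. The genes were chosen by name for their roles in autophagosome initiation (unc-51, epg-9), membrane supply (atg-9, atg-18), nucleation (bec-1), conjugation (lgg-1, lgg-2), cargo recognition (sqst-1, epg-2) and maturation (epg-5). The choice was made with earlier results of these data known. All 10 were found by gene name among the 18467 genes of the count table, and all 10 passed the filter on low counts. In macroautophagy a double membrane grows around cytoplasmic cargo, and the closed autophagosome then fuses with the lysosome, where acid hydrolases digest what it holds. The pathway runs from a kinase complex through a lipid kinase complex to ubiquitin-like proteins that are coupled to the growing membrane, and receptors such as SQST-1 tie ubiquitinated cargo to those proteins. Digestion depends on the acidity that the V-ATPase maintains. VHA-6 is its a subunit in the intestine, VHA-16 a d subunit and VHA-19 an accessory subunit. The SQST-1 protein is itself degraded by autophagy, but the values here are transcripts only.

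Wild-type N2 worms were given control RNAi, or bacteria against 1 of 3 pump genes (vha-6, vha-16, vha-19) at 25% with 75% control bacteria. Feeding began with L1 larvae, and the animals, kept at 20 °C, were taken 2.5 days later as L4 larvae or young adults. Each of the 4 groups had 3 libraries of whole worms, 12 in all. Gene counts ran from 21981854 to 22553227 per library, and the 10 genes had between 294 and 32021 reads in every library. Nothing in the labels tells if the 3 replicates of a group grew as separate cultures, and each p-value therefore reflects the variation among these libraries alone, part of which may be technical.

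The targeted genes checked the labels. Levels are given as CPM, the usual per-library scaling of counts, here to library totals adjusted by the TMM method (trimmed mean of M-values, which assumes that most genes do not differ). On that scale vha-6 stood at 401 in control and 93.7 under its own RNAi, vha-16 at 441 and 269, and vha-19 at 469 and 217. With library totals the log2 falls of vha-16 and vha-19 shrank to -0.19 and -0.57. Transcripts of vha-6 were also low under vha-16 (127 CPM) and vha-19 RNAi (116 CPM), and those of vha-16 (870 CPM) and vha-19 (781 CPM) were high under vha-6 RNAi. On the TMM scale, vha-19 was at 314 to 321 CPM in the vha-16 libraries and vha-16 at 371 to 384 CPM in the vha-19 libraries. On that scale both lay below control and above the level under their own RNAi. Library totals moved the vha-19 comparison with control up by a median of 0.543 on the log2 scale, which would put vha-16 there above control. The knockdown libraries also differed from control in germline and tissue transcripts. All 8 oocyte markers were lower in each knockdown, and their summed level was 8194 to 8313 CPM in control, 743 to 756 under vha-6, 637 to 644 under vha-16 and 657 to 690 under vha-19 RNAi. All 6 yolk protein genes were lower as well (103648 to 105317 CPM in control and at most 9739 in a knockdown library), and all 6 sperm markers were higher (123 to 131 CPM in control, 443 to 484 in the knockdowns). Of 5 intestinal markers, 5 were higher under vha-6 RNAi and 4 under vha-16 and vha-19 RNAi. Their sum, 991 to 1029 CPM in control and 1704 to 1989 CPM in the knockdowns, was mostly act-5, whereas the esterase gene ges-1 went from 54.7 ± 1.75 CPM in control to 9.56 ± 1.19 under vha-16 and 8.72 ± 1.09 under vha-19 RNAi. Of 4 hypodermal markers, 3 were higher in each knockdown (medians over the 4 of 1.46, 1.43 and 1.57), and the adult collagen gene col-19 was lower. Because col-19 holds most of the hypodermal sum, that sum was 1386 to 1539 CPM in control, 1379 to 1433 under vha-6, 564 to 637 under vha-16 and 912 to 938 under vha-19 RNAi. Beside these marker counts, 47.7% to 48% of all 17043 genes were called higher than control in a knockdown, and 41.4% to 42.2% lower (adjusted p under 0.05, edgeR). Whether 3 of 4 or 4 of 5 markers exceeds that share was not tested. No marker was at 0 in any group. In bulk RNA from whole worms, fewer cells of a type and less RNA per cell cannot be told apart. The animals were L4 larvae or young adults, and a difference in stage between groups cannot be told apart from the RNAi either. The part of these differences in the autophagy values was not tested.

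The receptor gene sqst-1 (WBGene00011737, chromosome IV, 12034282 to 12036891, forward strand, WBcel235) encodes the worm counterpart of p62/SQSTM1, which binds ubiquitinated cargo. The control libraries held 63.3, 59.1 and 68.4 CPM, the vha-6 libraries 309, 299 and 309 CPM, the vha-16 libraries 1282, 1269 and 1286 CPM, and the vha-19 libraries 1064, 1053 and 1085 CPM. The 4 groups did not overlap, and they stood in the order control, vha-6, vha-19, vha-16. Against control, sqst-1 rose 4.81-fold under vha-6 RNAi (log2 fold change 2.27, SE 0.0402, adjusted p = 2.85e-32, edgeR's quasi-likelihood test), 20.1-fold under vha-16 RNAi (4.33, SE 0.0408, adjusted p = 8.15e-40) and 16.8-fold under vha-19 RNAi (4.07, SE 0.0406, adjusted p = 2.93e-39). Among the 17043 genes tested, the rise ranked 1906 from the top under vha-6, 259 under vha-16 and 295 under vha-19 RNAi. The knockdowns also differed from each other, with vha-16 above vha-6 by 2.06 (SE 0.0345, adjusted p = 9.85e-33, edgeR) and vha-19 below vha-16 by a log2 difference of -0.26 (SE 0.0327, adjusted p = 1.72e-07, edgeR). No annotated exon of another gene overlaps those of sqst-1.

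**Figure D1:**
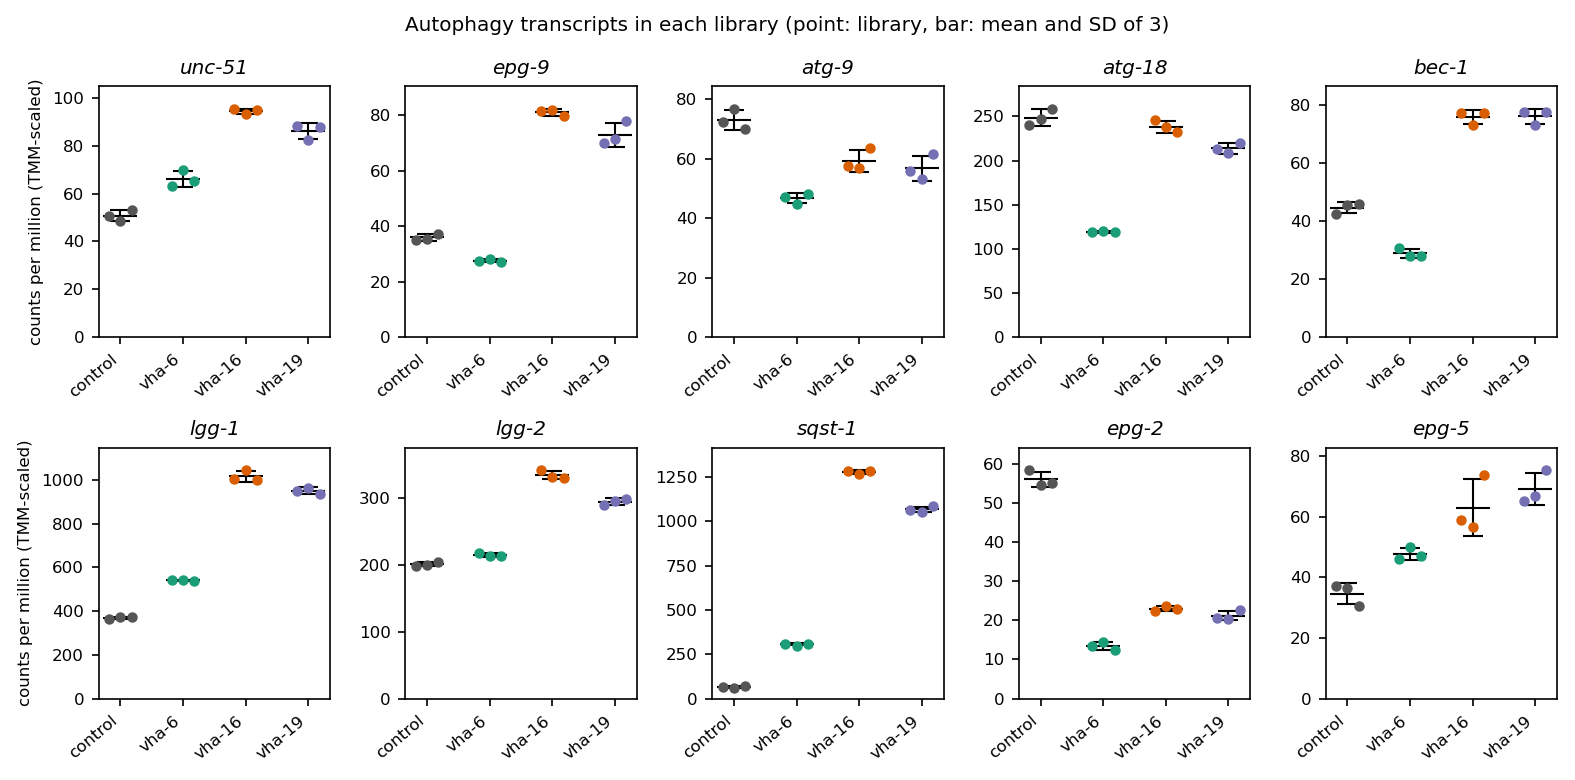
Level of the 10 autophagy genes in CPM (vertical axis, from 0, TMM-scaled) in each library of the 4 RNAi groups (horizontal axis); points are libraries and bars give the mean and SD of 3. The sqst-1 libraries lie near 64 CPM in control and at 1269 to 1286 CPM under vha-16 RNAi, epg-2 is highest in control, and every gene is lower under vha-6 than under vha-16 RNAi.

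Both conjugation genes among the 10 rose under vha-16 and vha-19 RNAi, lgg-1 by more than lgg-2. The lgg-1 gene (WBGene00002980, chromosome II, 6346960 to 6347719, reverse strand) encodes the GABARAP homologue that marks autophagosomes. It was at 364, 371 and 374 CPM in the control libraries, 543, 542 and 536 under vha-6, 1006, 1043 and 997 under vha-16, and 951, 965 and 933 under vha-19 RNAi. The groups did not overlap, and log2 fold changes against control were 0.55 (SE 0.0310, adjusted p = 8.71e-18), 1.46 (SE 0.0311, adjusted p = 3.8e-30) and 1.36 (SE 0.0311, adjusted p = 2.74e-29, edgeR), in the order vha-6, vha-16, vha-19. The lgg-2 gene (WBGene00002981, chromosome IV, 10934196 to 10935903, reverse strand), the LC3 homologue, was at 198, 200 and 204 CPM in control, 217, 213 and 213 under vha-6, 341, 330 and 330 under vha-16, and 289, 296 and 298 under vha-19 RNAi. Its rise was 0.73 under vha-16 (SE 0.0319, adjusted p = 4.06e-21) and 0.55 under vha-19 RNAi (SE 0.0320, adjusted p = 1.6e-17, edgeR). The vha-6 libraries lay just above control (0.09, SE 0.0325, adjusted p = 0.00804, edgeR), a difference that is -0.042 and not called with DESeq2's size factors (adjusted p = 0.231).

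Of the initiation genes among the 10, unc-51 rose in each knockdown and epg-9 rose in 2 of the 3. The unc-51 gene (WBGene00006786, chromosome V, 19995986 to 20004485, reverse strand) encodes the ULK1-type kinase that starts autophagosome formation. Its libraries held 50.7, 48.5 and 53.1 CPM in control, 63.1, 70.0 and 65.4 under vha-6, 95.2, 93.4 and 94.8 under vha-16, and 88.2, 82.4 and 87.8 under vha-19 RNAi. The rises of 0.38, 0.90 and 0.76 (SE 0.0445 to 0.0463) were all called, with adjusted p = 2.89e-09, 1.9e-19 and 2.33e-17 (edgeR). The epg-9 gene (WBGene00022078, chromosome IV, 2601141 to 2607464, forward strand) encodes an ATG101-type partner of the kinase complex. It was at 35.0, 35.4 and 37.3 CPM in control, 27.4, 28.1 and 27.1 under vha-6, 81.5, 81.9 and 79.6 under vha-16, and 69.8, 71.2 and 77.9 under vha-19 RNAi. It rose 2.26-fold under vha-16 (1.17, SE 0.0465, adjusted p = 2.46e-22) and 2.03-fold under vha-19 RNAi (1.02, SE 0.0469, adjusted p = 1.82e-20, edgeR). Under vha-6 RNAi it fell (-0.38, SE 0.0537, adjusted p = 6.49e-08, edgeR), but stood at 0.065 when libraries were scaled by their totals (adjusted p = 0.24).

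The lipid kinase subunit gene bec-1 (WBGene00000247, chromosome IV, 5661141 to 5664425, reverse strand), the Beclin 1 homologue, fell under vha-6 RNAi and rose in the other knockdowns. It was at 42.3, 45.4 and 45.8 CPM in control, 30.7, 27.8 and 27.8 under vha-6, 77.2, 73.1 and 77.1 under vha-16, and 77.5, 73.1 and 77.4 under vha-19 RNAi. The fall under vha-6 RNAi was called (-0.63, SE 0.0523, adjusted p = 3.27e-13, edgeR), as were rises of 0.77 under vha-16 (SE 0.0459, adjusted p = 3.85e-17) and 0.77 under vha-19 RNAi (adjusted p = 3.18e-17, edgeR). These directions held with all 3 ways of scaling, with -0.18 under vha-6 RNAi as the smallest change, from library totals.

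With TMM scaling, the membrane supply genes atg-18 and atg-9 were highest, or level with the highest, in control. The atg-18 gene (WBGene00018294, chromosome V, 8629174 to 8631327, reverse strand) encodes a WIPI-type protein that binds the lipid made by the BEC-1 complex. Its libraries held 240, 247 and 259 CPM in control, 119, 120 and 119 under vha-6, 246, 238 and 232 under vha-16, and 213, 208 and 220 under vha-19 RNAi. It fell 2.09-fold under vha-6 RNAi (-1.06, SE 0.0360, adjusted p = 3.26e-24, edgeR), while the control and vha-16 libraries overlapped (-0.06, SE 0.0344, adjusted p = 0.0977, edgeR). That difference depended on the processing, at -0.25 and called with DESeq2's size factors (adjusted p = 3.78e-08, edgeR), 0.46 with library totals and 0.12 with a filter at a mean of 5 CPM. It was also called without control replicate 1 (-0.089, adjusted p = 0.0295) or vha-16 replicate 1 (-0.081, adjusted p = 0.0436, edgeR). The fall of -0.22 under vha-19 RNAi (SE 0.0345, adjusted p = 6.19e-07, edgeR) turned to 0.33 with library totals. The atg-9 gene (WBGene00020706, chromosome V, 349385 to 359658, forward strand) encodes the membrane-spanning ATG9 protein, known in yeast and mammals as a lipid scramblase. It was at 72.3, 76.7 and 70.0 CPM in control, 47.1, 44.9 and 48.1 under vha-6, 57.4, 56.9 and 63.4 under vha-16, and 55.9, 53.1 and 61.4 under vha-19 RNAi. It fell by 0.64 on the log2 scale under vha-6 RNAi (SE 0.0518, adjusted p = 1.35e-13, edgeR). The falls of -0.30 under vha-16 (SE 0.05, adjusted p = 1.3e-06) and -0.36 under vha-19 RNAi (SE 0.0501, adjusted p = 4.5e-08, edgeR) became rises of 0.22 and 0.18 with library totals.

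The adaptor gene epg-2 (WBGene00021468, chromosome I, 2300086 to 2302813, forward strand) went against sqst-1. EPG-2 is a nematode coiled-coil protein that links protein aggregates of the embryo to LGG-1. Its libraries held 58.4, 54.7 and 55.1 CPM in control, 13.4, 14.4 and 12.5 under vha-6, 22.3, 23.8 and 23.0 under vha-16, and 20.7, 20.4 and 22.6 under vha-19 RNAi. It fell by 2.06 on the log2 scale under vha-6 (SE 0.0589, adjusted p = 2.31e-26), by 1.28 under vha-16 (SE 0.0534, adjusted p = 1.07e-21) and by 1.40 under vha-19 RNAi (SE 0.0539, adjusted p = 1.08e-22, edgeR). The oocyte markers fell in the same libraries (medians of -3.77, -3.75 and -3.68), and their part in the epg-2 values was not tested. Of 2280 exon bases, 78 overlap tpxl-1 on the opposite strand, and whether the counting used strand was not stated.

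The maturation gene epg-5 (WBGene00016968, chromosome II, 6598344 to 6609365, reverse strand), which acts in the fusion of autophagosomes with late endosomes and lysosomes, rose in each knockdown. It was at 37.1, 36.4 and 30.5 CPM in control, 46.2, 49.998 and 46.9 under vha-6, 58.8, 56.5 and 73.7 under vha-16, and 65.4, 67.0 and 75.3 under vha-19 RNAi. The log2 fold changes were 0.46 (SE 0.0788, adjusted p = 2.38e-06), 0.86 (SE 0.0758, adjusted p = 1.37e-12) and 1.00 (SE 0.0749, adjusted p = 2.17e-14, edgeR). Its spread was the widest of the 10, with a coefficient of variation of 14.8% under vha-16 RNAi against a median of 3.40% over the 40 gene and group values.

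Counted together, 5 of the 10 genes rose and 5 fell under vha-6 RNAi, where 47.9% of all 17043 genes were called higher and 41.4% lower. Under vha-16 RNAi 7 rose and 2 fell (48% and 41.9% of all genes), and under vha-19 RNAi 7 rose and 3 fell (47.7% and 42.2%). With library totals in place of TMM, 5 rose and 4 fell under vha-6 RNAi, where 58.1% of all genes were then called higher and 32.8% lower. The split was then 9 and 1 under vha-16 (59.4% and 31.8% of all genes) and 9 and 1 under vha-19 RNAi (59.6% and 31.7%). The libraries of the compared groups did not overlap for 10, 9 and 10 of the genes, against 89.6%, 90% and 89.9% of all genes. Median log2 fold changes of the 10 were -0.14, 0.81 and 0.77, beside 0.24, 0.20 and 0.19 over all genes tested. The 3 comparisons share their control libraries and are not independent of each other.

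The zero line of these comparisons depended on the scaling. Library totals moved changes by a median of 0.446, 0.519 and 0.543 on the log2 scale in the vha-6, vha-16 and vha-19 comparisons, and DESeq2's size factors by -0.136, -0.191 and -0.173. In all 3 comparisons sqst-1, lgg-1, unc-51 and epg-5 were higher than control and epg-2 lower under each of the 3 scalings. For sqst-1 the range was 2.13 to 2.71 under vha-6, 4.14 to 4.85 under vha-16 and 3.90 to 4.61 under vha-19 RNAi.

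**Figure D2:**
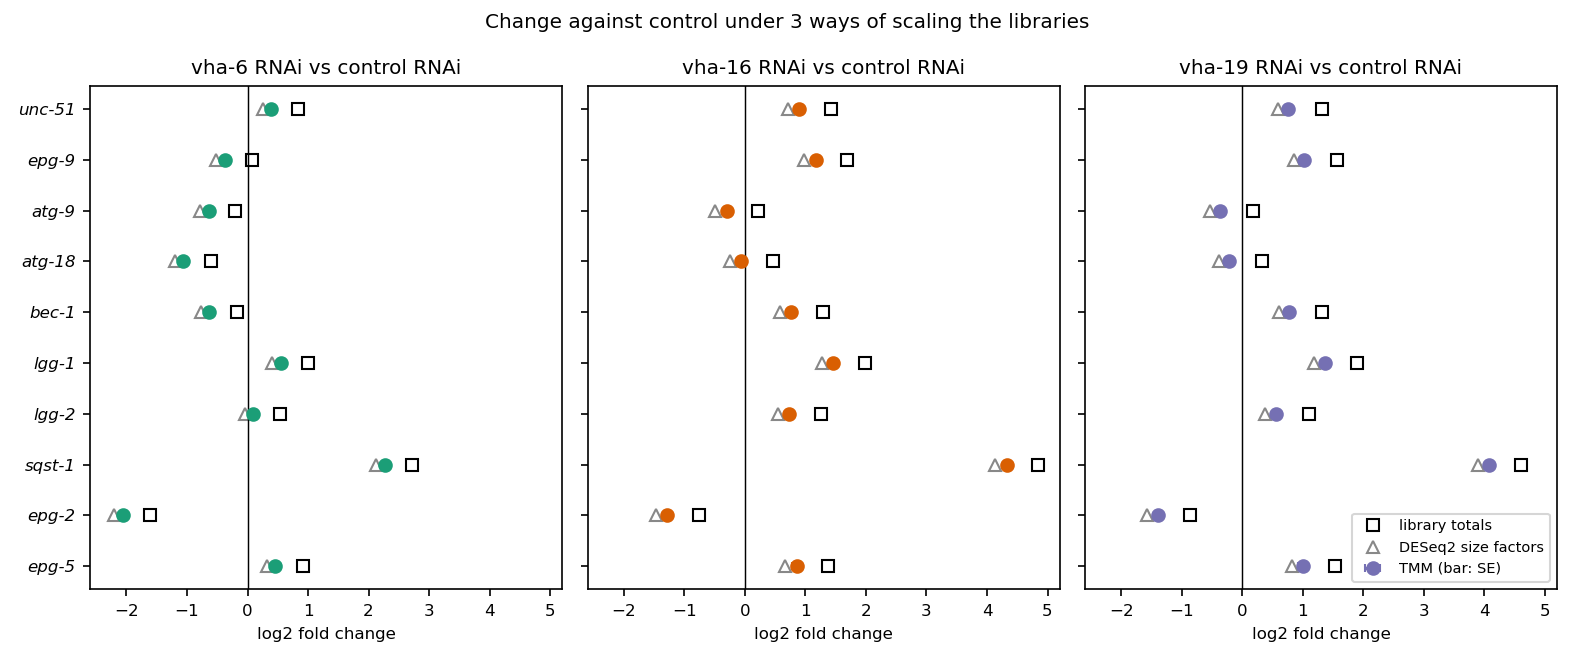
Log2 fold change against control (horizontal axis) of the 10 autophagy genes (vertical axis) in the 3 knockdowns, with libraries scaled by TMM (filled circles, bars SE), library totals (squares) or DESeq2 size factors (triangles). The symbols of epg-9 under vha-6 RNAi, of lgg-2 under vha-6 RNAi, and of atg-9 and atg-18 under vha-16 and vha-19 RNAi lie on both sides of 0, whereas those of sqst-1 under vha-16 RNAi span 4.14 to 4.85.

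The knockdowns were also compared with each other. Every one of the 10 genes was higher under vha-16 than under vha-6 RNAi, with log2 differences of 0.34 to 2.06 and a median of 0.84, and 31.6% of all genes were called higher and 31.2% lower in that comparison, whose median over all genes was -0.01. All 10 were also higher under vha-19 than under vha-6 RNAi (0.28 to 1.80, median 0.74), where 29.5% of all genes were called higher and 29% lower. The libraries of the compared groups did not overlap for any of the 10, against 66.6% and 63.2% of all genes. After sqst-1, the widest gaps between vha-16 and vha-6 RNAi were in epg-9 (1.56, SE 0.0457), bec-1 (1.40, SE 0.0465) and atg-18 (1.00, SE 0.0354), and the smallest was in atg-9 (0.34, SE 0.0507, adjusted p = 3.53e-07, edgeR). Differences of 2-fold or more were called for 4 of the 10 genes under vha-16 RNAi (8.11% of all genes) and for 3 under vha-19 RNAi (6.99%). Library totals moved these comparisons by 0.0727 and 0.0962 at the median, and all 10 genes were called higher in both under every alternative run. All 4 neuronal markers were also higher under vha-16 than vha-6 RNAi (summed 988 to 1008 against 578 to 591 CPM, with 406 to 425 in control), and all 4 body-wall muscle markers were lower (2622 to 2753 against 5778 to 6021 CPM, with 4054 to 4436 in control). Under vha-19 RNAi, where 2 of the neuronal markers were called higher than under vha-6 RNAi and all 4 muscle markers lower, these sums were 869 to 877 and 2684 to 2870 CPM. Against control the muscle markers split, with 1 (myo-3) higher and 3 lower under both vha-16 and vha-19 RNAi. Under vha-6 RNAi 3 muscle markers were higher than control and 1 (unc-27) lower. The neuronal markers also split there, with 3 higher and 1 (snb-1) lower, beside 47.9% and 41.4% of all genes. The part of those tissues in the autophagy differences was not tested.

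Differences between vha-16 and vha-19 RNAi were smaller, at most 0.26 in size. Of the 10 genes 6 were lower under vha-19 RNAi and 0 were higher in edgeR's test, where 9.81% of all genes were called lower and 7.56% higher. The 6 were sqst-1 (-0.26), lgg-2 (-0.18), atg-18 (-0.16), epg-9 (-0.15), unc-51 (-0.13) and lgg-1 (-0.10). The 3 smallest of these calls were lost under some alternatives. With library totals unc-51 and lgg-1 were not called (adjusted p = 0.0514 and 0.0762, edgeR), lgg-1 was not called with DESeq2's size factors (0.071) or with only the compared groups in the fit (0.0599), and epg-9 and unc-51 were not called by the DESeq2 Wald test (0.0534 and 0.0852). Leaving out any of the 6 libraries of these groups ended the call of lgg-1, and leaving out single ones ended that of unc-51 in 4 fits and of epg-9 in 3. The count fell to 3 without vha-16 replicate 1 or without vha-19 replicate 2. The libraries of these groups did not overlap for 6 of the 10 genes, against 30.2% of all genes. For bec-1 the 95% interval of the log2 difference ran from -0.0757 to 0.0835 (adjusted p = 0.97, edgeR). The epg-5 difference of 0.14 was not called (adjusted p = 0.166, edgeR), but was 0.28 without vha-16 replicate 3 (adjusted p = 0.00039), the library at 73.7 CPM, and 0.19 without vha-19 replicate 1 (adjusted p = 0.046).

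**Figure D3:**
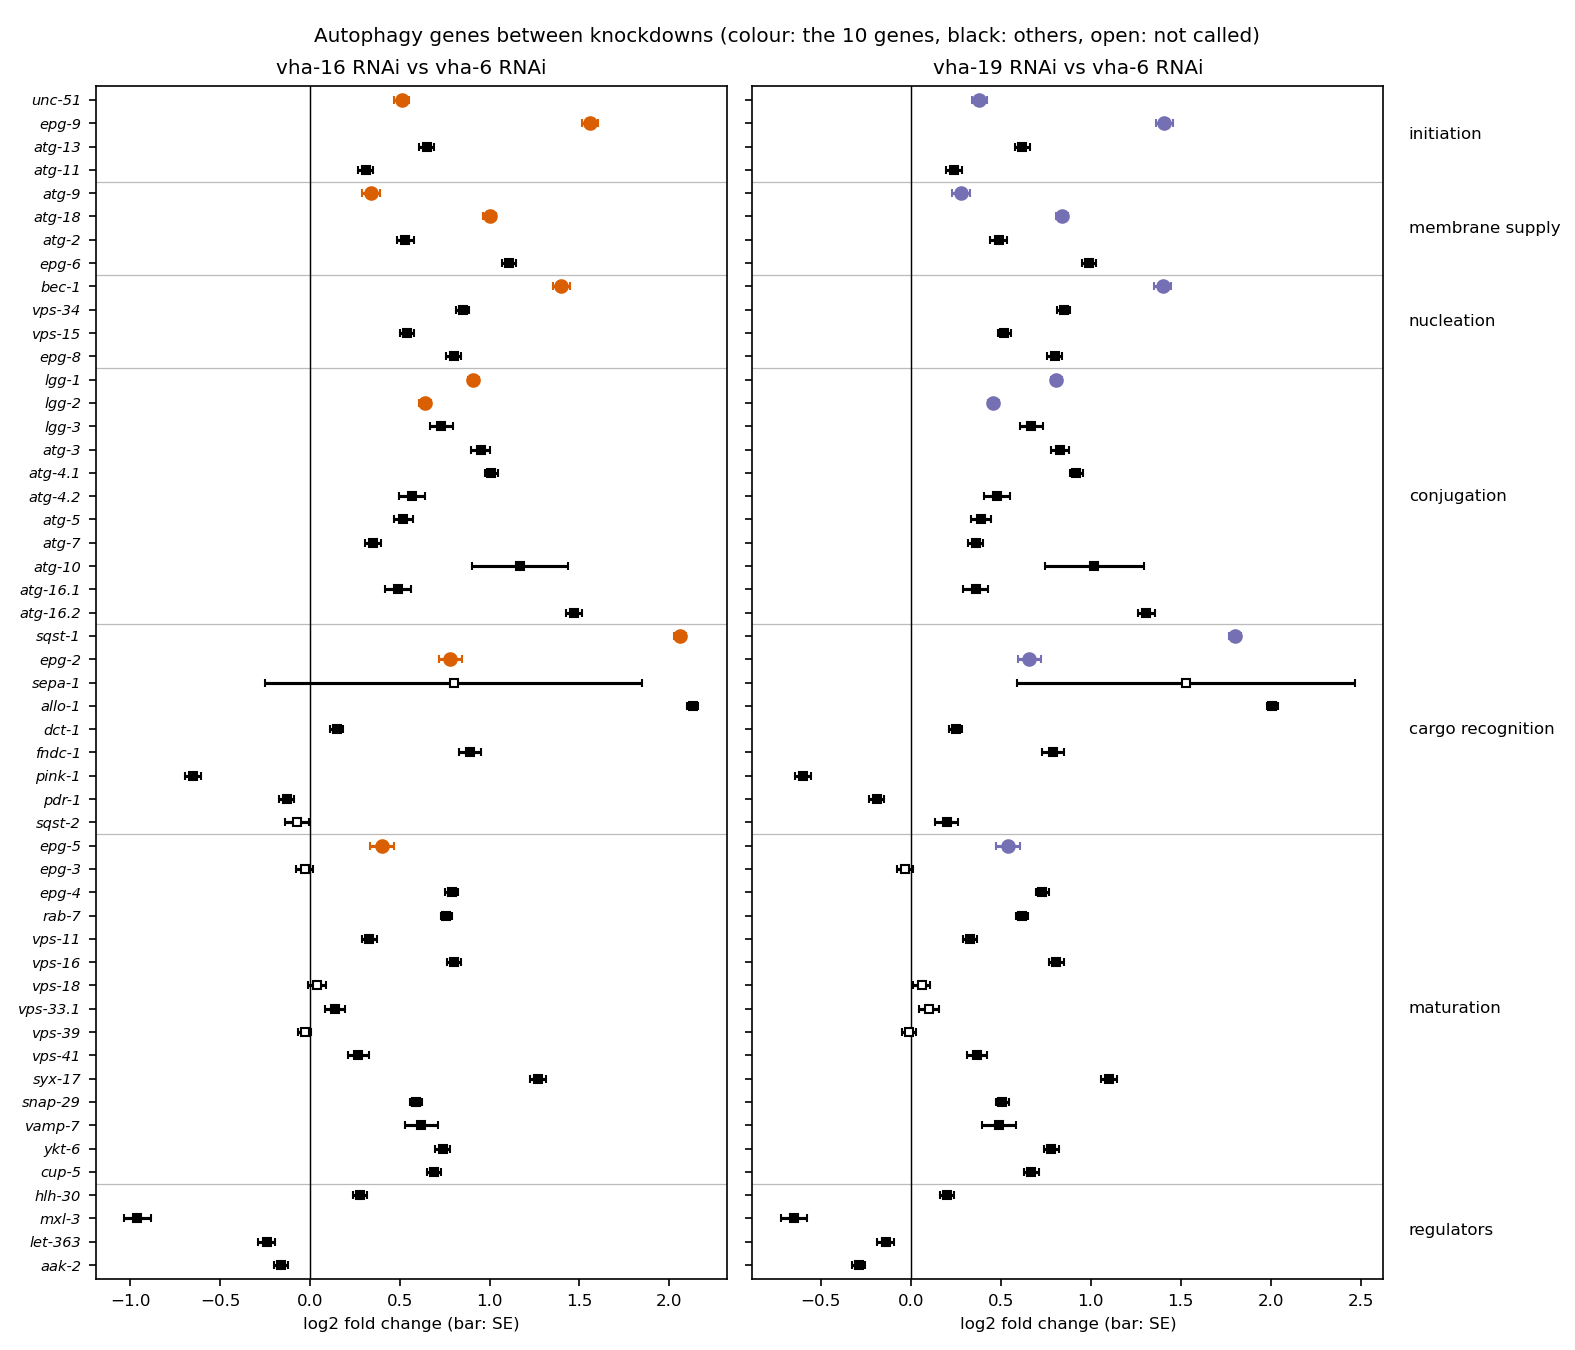
Log2 fold change of 51 autophagy genes, grouped by role (vertical axis), between vha-16 and vha-6 RNAi (left) and between vha-19 and vha-6 RNAi (right); circles in colour are the 10 genes, black squares the other 41, open symbols were not called, and bars give the SE. All 10 circles lie to the right of 0 in both panels, as do 9 of 9 other conjugation genes, and sqst-1 and allo-1 lie farthest to the right among called genes.

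Levels of different genes were compared per kilobase of exon. In control the order ran from lgg-1 (522 ± 7.72 CPM per kilobase, SD, n = 3) through lgg-2 (193 ± 3.07) and atg-18 (138 ± 5.23) to a group between 33.3 and 17.5 that held bec-1, sqst-1, epg-9, epg-2, atg-9 and unc-51, with epg-5 last at 4.76 ± 0.497. In that group sqst-1 (28.2 ± 2.05) overlapped epg-9, and epg-9 overlapped epg-2. The sqst-1 level moved from the fifth place in control to the third under vha-6 RNAi (136 ± 2.56) and the second under vha-16 (568 ± 4.0) and vha-19 RNAi (474 ± 7.23), where it stood above lgg-2 (321 ± 6.02 and 283 ± 4.66). lgg-1 was the highest in each group, at 763 ± 4.95 under vha-6, 1434 ± 34.7 under vha-16 and 1341 ± 22.2 under vha-19 RNAi. The share of sqst-1 in the summed level per kilobase of the 10 genes was 2.80% in control and 10.8%, 21.5% and 19.8% in the vha-6, vha-16 and vha-19 groups. epg-2 went from the seventh place to the last under vha-6 and vha-19 RNAi, although its libraries overlapped those of epg-5 under vha-16 and vha-19 RNAi.

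**Figure D4:**
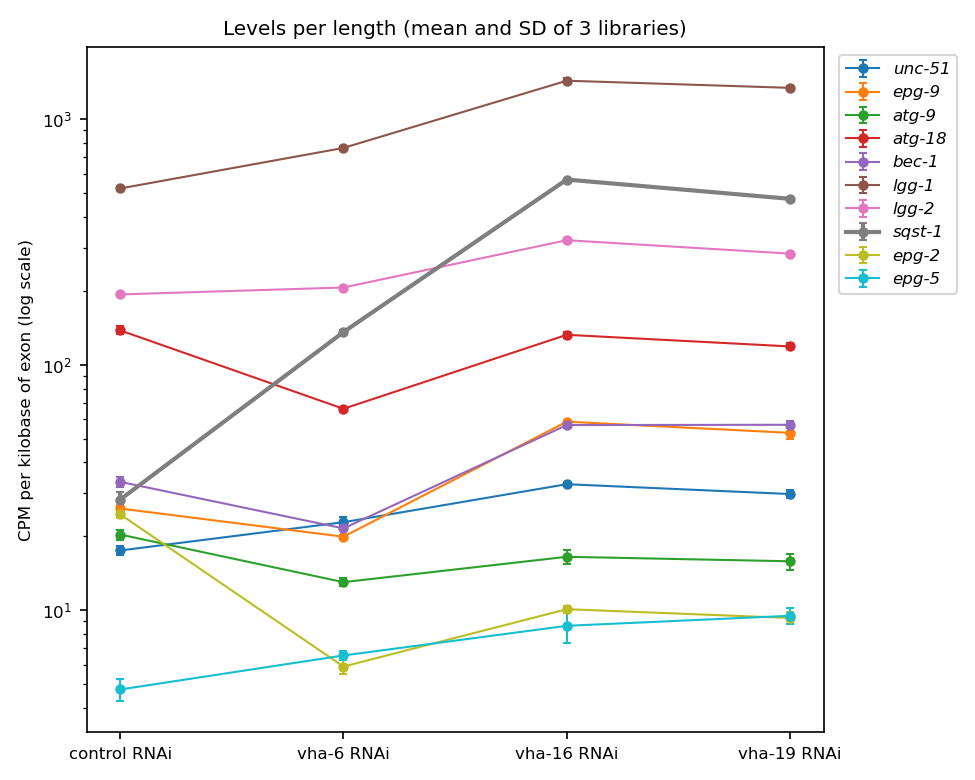
Level per kilobase of exon (vertical axis, log scale, CPM per kilobase) of the 10 autophagy genes in the 4 RNAi groups (horizontal axis), with mean and SD of 3 libraries. The sqst-1 line climbs from 28.2 in control to 568 under vha-16 RNAi and crosses those of bec-1, atg-18 and lgg-2.

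Most of the other genes of the pathway fell against control with TMM scaling. Of 44 listed by role 41 were in the table, all passed the filter, and under vha-6 RNAi 7 rose and 33 fell (median -0.87, against 0.24 over all genes), where 47.9% of all genes were called higher and 41.4% lower. Under vha-16 RNAi 12 rose and 26 fell (median -0.23, beside 48% and 41.9% of all genes). Under vha-19 RNAi 10 rose and 27 fell (median -0.24, beside 47.7% and 42.2%). With library totals these splits became 10 and 27 (58.1% and 32.8% of all genes), 27 and 9 (59.4% and 31.8%), and 26 and 9 (59.6% and 31.7%). The direction of many of these genes against control thus rests on the scaling. Between knockdowns 31 of the 41 were higher and 5 lower under vha-16 than under vha-6 RNAi (31.6% and 31.2% of all genes), and 31 and 5 under vha-19 RNAi (29.5% and 29%).

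By role, all 9 other conjugation genes fell under vha-6 RNAi (median -0.90), where 41.4% of all genes were called lower, but atg-4.1 (0.14) and atg-16.2 (0.0063) turned with library totals. Among the 9 were the E2-like enzyme gene atg-3 (64.5 ± 3.34 to 30.01 ± 1.77 CPM, -1.10), the protease gene atg-4.2 (-1.05) and atg-10 (-1.87, from 2.25 ± 0.429 CPM). Under vha-16 RNAi atg-16.2, a subunit of the LGG coupling complex, rose (33.8 ± 1.32 to 68.7 ± 1.78 CPM, 1.03), as it did under vha-19 RNAi (0.86). The lipid transfer gene atg-2, a partner of ATG-18, rose in each knockdown (0.74, 1.28 and 1.24). The ATG14-type gene epg-8, whose product joins BEC-1 in the lipid kinase complex, fell under vha-6 RNAi (-1.15). Of the 14 other maturation genes all fell under vha-6 RNAi (median -0.98), against 41.4% of all genes, but snap-29, which encodes a fusion protein, turned from -0.14 to 0.31 with library totals. The atg-4.1 and snap-29 genes are named for these exceptions, after their values were seen. The mucolipin channel gene cup-5 went from 146 ± 3.64 to 41.8 ± 1.22 CPM (-1.80), and the vesicle tethering genes vps-39 (-1.43) and vps-33.1 (-1.40) and the endoplasmic reticulum gene epg-4 (-1.12) fell too. Levels of vps-39 were 63.6 ± 0.592, 62.1 ± 0.617 and 63.2 ± 1.79 CPM in the vha-6, vha-16 and vha-19 groups, against 172 ± 3.19 in control. The transcription factor gene hlh-30, the TFEB homologue that drives autophagy and lysosome genes, rose by 0.89, 1.17 and 1.09.

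Cargo receptors other than sqst-1 moved both ways. allo-1 (R102.5 in the table), a receptor for paternal mitochondria in embryos, stood at 143 ± 0.804 CPM in control, 165 ± 1.89 under vha-6, 720 ± 7.91 under vha-16 and 661 ± 2.52 under vha-19 RNAi. Its changes were 0.20, 2.33 and 2.2, the smallest of which was not called with DESeq2's size factors (adjusted p = 0.0819). The mitophagy receptor gene dct-1, related to mammalian BNIP3, rose by 2.16, 2.31 and 2.41, from 20.6 ± 0.566 CPM. The sequestosome-related gene sqst-2 rose by 1.32, 1.25 and 1.52, from 9.09 ± 1.30 CPM, and its difference between vha-16 and vha-6 RNAi was not called (-0.07, SE 0.0669, adjusted p = 0.398, edgeR). The mitophagy kinase gene pink-1 fell (-0.93, -1.59 and -1.53), and so did fndc-1, a homologue of mammalian FUNDC1 (T06D8.7 in the table, -1.38 under vha-6 RNAi). The embryonic aggregate receptor gene sepa-1 had 810 reads over the control libraries and 2, 4 and 7 over those of the vha-6, vha-16 and vha-19 groups. Control was thus 172-fold above vha-19 RNAi (95% counting interval 83.3 to 430, exact binomial, which covers counting error only). Control was 297-fold above vha-16 RNAi (116 to 1094) and 562-fold above vha-6 RNAi (155 to 4646). Both reads of the vha-6 group lie in replicate 1. Without it the group had 0 reads, and control was at least 249.8-fold higher against a floor of 3 counts over the group.

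Patterns most like those of sqst-1 and lgg-1 were sought by the Euclidean distance between the 3 log2 fold changes against control, among 11495 other genes with a mean of at least 5 CPM. For sqst-1 the nearest were B0462.5 (distance 0.148 on the log2 scale), Y36E3A.2 (0.230), W09G12.7 (0.249), R03H10.7 (0.276) and ZK1290.10 (0.287). All 5 were far lower in abundance, at 0.768 to 2.48 CPM in control, and B0462.5 was the highest of them at 46.6 CPM under vha-16 RNAi against 1279 for sqst-1. They reached the mean of 5 CPM only through groups in which they were high, so the filter itself favours genes of this pattern. For lgg-1 they were F39E9.10 (0.0621), the nuclear hormone receptor gene nhr-109 (0.0833), K09F5.6 (0.0898), F22H10.3 (0.0991) and the adenylyl cyclase gene acy-3 (0.114). The distances rest on 4 group means that share their control, and describe these libraries only.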

How the data were processed

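The authors deposited raw read counts per gene, with no normalization. Per the submitters' processing notes, STAR 2.73a, edgeR 3.24.3 and WBcel235/ce11 were used. Not stated there are the counting program, strand setting and gene filter. 3 entries of unassigned reads were kept apart, which held by group mean 7.64% to 15.3% (not uniquely mapped), 0.863% to 1.00% (ambiguous) and 0.693% to 1.30% (no feature) of all reads in the table. Counts were analysed with edgeR 4.0.16 in R 4.3.3. The function filterByExpr left 17043 genes, libraries were scaled by TMM, and 1 mean per group was fitted to all 12 libraries. The 6 contrasts were tested with the quasi-likelihood F-test, with Benjamini-Hochberg adjustment over all genes and calls at adjusted p under 0.05. The biological coefficient of variation was 2.99%. Positions and exon lengths come from Ensembl release 115. The code was run on simulated counts in which few genes differed, unlike these libraries. That run therefore cannot check the directions that TMM scaling gives here. Alternatives used limma 3.58.1, DESeq2 1.42.0, other scalings and filters, thinned counts, single comparisons, a replicate block and each library left out. The members and gene lists were chosen with earlier results of these data known. Named genes are the 10, the 3 targets, pathway genes called at 2-fold or more against control (at most 4 per list and comparison, by p), and the 5 nearest patterns.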

Additional observations from a re-analysis of the deposited data

Results flagged for a closer look

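Reads that fell on no annotated feature lie outside the gene counts, and their share of all reads in the table was above control in each knockdown. It was 0.693% ± 0.00875 in control (SD, n = 3), 0.995% under vha-6, 1.30% under vha-16 and 1.27% under vha-19 RNAi. The share of reads not uniquely mapped went the other way and differed by more. It was 15.3% in control, 9.50% under vha-6, 7.64% under vha-16 and 8.08% under vha-19 RNAi.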

How the results depend on the processing

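Under 9 alternative settings and 12 single libraries left out, 1223 of 1260 values of the 10 genes kept their direction and their side of the threshold, 11 changed direction, 20 lost a call and 6 gained one. Most of these values come from refits that keep TMM scaling. With library totals alone, 53 of 60 stayed the same, 5 changed direction and 2 lost a call. With library totals, log2 fold changes against control turned to 0.065 for epg-9 (vha-6), 0.22 and 0.18 for atg-9, 0.46 and 0.33 for atg-18, 0.18 and 0.19 for epg-8, 0.37 and 0.27 for atg-3, 0.18 and 0.15 for epg-4 (each vha-16, then vha-19), 0.033 for atg-4.2 and 0.037 for fndc-1 (vha-16) and 0.0063 for atg-16.2 (vha-6). Against vha-6 RNAi, sqst-2 turned to 0.0058 (vha-16) and vps-39 to 0.038 and 0.086. The filter at a mean of 5 CPM gave 0.12 for atg-18 and 0.035 for atg-3 (vha-16 against control). For vha-19 against control it gave -0.036 and -0.094 for these genes, neither of them called. DESeq2's size factors and Wald test gave -0.042 for lgg-2 (vha-6). Of the 10, library totals left 1 lower under vha-16 and 1 under vha-19 RNAi. Of the 41 others they gave 27 higher and 9 lower under vha-16 RNAi (59.4% and 31.8% of all genes). Under vha-19 RNAi the split was 26 and 9 (59.6% and 31.7%). Library totals gave 3 lower than under vha-6 RNAi in each (31.2% and 29% of all genes were called lower with TMM). The 5 CPM filter gave 15 and 17 lower than control, beside 41.9% and 42.2% of all genes with the main filter. The atg-10 and sepa-1 genes, both called lower in the main fit, do not pass the 5 CPM filter. Part of that drop is therefore genes that left the test. Shares of all genes at the 5 CPM setting are not given. Leaving out single libraries gave 3 to 6 of the 10 lower and 0 to 1 higher between vha-19 and vha-16 RNAi. With all 12 libraries, 9.81% of all genes were called lower there and 7.56% higher. In those refits atg-9 ran from -0.10 to 0.007 and bec-1 from -0.0065 to 0.047. The cause was not tested. With the replicate number as a block, 0 calls of 148 single-gene results changed and 7 of the 10 rose under vha-16 RNAi. In the main fit 48% of all genes were called higher in that comparison. Of 24 counts 2 differed, both of the 41 others against control, with 27 in place of 26 lower (vha-16) and 11 in place of 10 higher (vha-19). Of 18 same-numbered pairs 0 correlated above 0.1, and 3 of 12 libraries correlated best with their own number. Between vha-16 and vha-19 RNAi the same-numbered pairs were at 0.0271, 0.0284 and 0.05, and the others at -0.0258 to -0.00342. Between control and vha-16 RNAi the same-numbered pairs were at -0.0318, -0.00833 and -0.0315. Correlations this small cannot decide whether the numbers pair the libraries.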
